A study of Mus musculus with 3 samples.

Results

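Neuropeptide genes, 10 in number, were followed across the 3 culture media of a study of semaphorin 3E (SEMA3E) in sensory neurons: Tac1, Sst, Gal, Npy, Vip, Adcyap1, Crh, Nts, Cck and Nppb. They were chosen by name, as peptides of sensory neurons, with earlier results of these data known, and they are 10 of the 30142 genes that the array annotation names by a single symbol. Each of the 10 has exactly 1 probe set. The cells were primary dorsal root ganglion (DRG) neurons of male ICR mice aged 8 to 10 weeks, ICR being an outbred strain, kept for 72 hours in 1 of 3 media before total RNA was taken. The first medium, called SEMA3E+IgG here, was DMEM with the B27 supplement, 1 µg/ml recombinant SEMA3E and 1 µg/ml of an IgG that blocks SEMA3E. The second, called SEMA3E, held the same base medium and the same dose of SEMA3E without the IgG. The third, the control medium, was DMEM with B27 alone. Each medium has 1 array, so no difference below has a replicate, an error or a test. No array with an unrelated IgG was analysed here, so the blocking action and any other effect of an added IgG cannot be told apart.

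Neuropeptides are cut from larger precursor proteins, packed into dense-core vesicles and released to act on G protein-coupled or guanylyl cyclase receptors of neighbouring cells. Some DRG neurons make peptides such as substance P and somatostatin constitutively and use them in pain and itch signalling. After a peripheral axon is cut, sensory neurons are known to switch on others, among them galanin, neuropeptide Y, vasoactive intestinal peptide and PACAP, and dissociating a ganglion for culture also cuts these axons. Tac1 and Sst stand below for the constitutive peptides, and Gal, Npy, Vip, Adcyap1 and Crh for the injury-induced ones. Nts, Cck and Nppb were put in neither set, although Nts and Nppb are listed below with markers of the itch neurons that make Sst. This split is a choice of list and was not tested.

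The signal of 8 of the 10 genes lay at or above background, as did that of 17653 of all 30142 genes. Of the 8 neuropeptide genes the 4 injury-induced ones differed between media while both constitutive ones, Tac1 and Sst, did not. The constitutive set is thus only 2 genes, and Sst lay 0.82 above background on the log2 scale. Outside the 10, the peptide genes Cartpt, also induced by nerve injury, and Calcb held 1 value in all 3 arrays. An identical value in all 3 arrays is the common case, found in 74.9% of all genes above background. It was found in 39.7% of the 982 genes at least as bright as Npy, which include Gal, Npy and Adcyap1 but not Tac1, Sst or Crh, and the part of brightness in the contrast between the 2 sets was not tested. In the SEMA3E+IgG array Gal, Npy and Crh were lower than with SEMA3E alone, by log2 differences of −0.30, −0.20 and −0.19. Against control medium these 3 and Adcyap1 were lower, by between −0.14 (Adcyap1) and −0.42 (Gal). Tac1, Sst and Nppb held the same value in all 3 arrays. None of the 10 genes differed by as much as 1.5-fold in any comparison, as was so for nearly all genes: 0.17% did in SEMA3E against control, 0.136% in SEMA3E+IgG against SEMA3E and 0.204% in SEMA3E+IgG against control.

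Values are the intensities that the authors deposited, on a linear scale that ran from 6.12 to 496402 units, with array medians of 44.5 (SEMA3E+IgG), 45.0 (SEMA3E) and 44.5 (control). Log2 values are log2(intensity + 1). A background floor of 5.48 on that scale, or 43.7 units, was taken from 492 vomeronasal receptor genes, which are not expected in this tissue, and 17653 genes had a mean at or above it. A gene was called apart between 2 arrays at 1.1-fold or more (0.14 on the log2 scale). Of the 17653 genes 17.3% had 2 distinct values over the 3 arrays and 7.79% had 3. Equal summarised values leave room for unequal RNA, since summing probes into 1 value can hide a small change. All 15 neuronal markers examined, among them Uchl1, Prph, Isl1 and Avil, lay above the floor, as did 17653 of all 30142 genes. So did all 7 satellite glial and all 7 fibroblast markers measured, and 5 of 9 macrophage markers. Passing the floor therefore does not show how pure the neurons were. In a culture that may be mixed, fewer cells of a type and less RNA per cell cannot be told apart. Probe sets differ in how strongly they bind, so intensities are compared between media for 1 gene and not between genes.

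Promoter sequences from RefSeq (GRCm38.p6) were matched for 9 of the 10 genes, and that of Crh was not used here. Promoter windows of 2 genes that were lower with the IgG (Gal and Npy) and of the 2 constitutive genes (Tac1 and Sst) are printed because the cyclic AMP response element (CRE) is the textbook control site of several neuropeptide genes. Each window runs from 250 bases before the gene start to 50 after it, 5′ to 3′ on the strand of the gene. Capitals mark every CRE half-site TGACG, read on both strands, so that CGTCA is capital as well. The Gal window is chr19:3414495-3414794 (minus strand), that of Npy chr6:49822460-49822759 (plus), that of Tac1 chr6:7554811-7555110 (plus) and that of Sst chr16:23890795-23891094 (minus).

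Gal: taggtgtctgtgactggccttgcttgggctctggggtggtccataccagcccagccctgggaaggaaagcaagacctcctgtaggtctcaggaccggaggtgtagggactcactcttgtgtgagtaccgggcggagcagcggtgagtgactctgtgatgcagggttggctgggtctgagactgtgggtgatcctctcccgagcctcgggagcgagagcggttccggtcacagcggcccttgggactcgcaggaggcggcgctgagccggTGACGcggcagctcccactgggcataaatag

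Npy: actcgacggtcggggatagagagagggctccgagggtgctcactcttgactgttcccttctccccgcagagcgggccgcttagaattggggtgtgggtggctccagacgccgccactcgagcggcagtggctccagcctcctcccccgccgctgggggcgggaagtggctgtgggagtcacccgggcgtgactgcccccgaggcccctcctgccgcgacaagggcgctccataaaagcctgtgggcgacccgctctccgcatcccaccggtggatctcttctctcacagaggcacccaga

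Tac1: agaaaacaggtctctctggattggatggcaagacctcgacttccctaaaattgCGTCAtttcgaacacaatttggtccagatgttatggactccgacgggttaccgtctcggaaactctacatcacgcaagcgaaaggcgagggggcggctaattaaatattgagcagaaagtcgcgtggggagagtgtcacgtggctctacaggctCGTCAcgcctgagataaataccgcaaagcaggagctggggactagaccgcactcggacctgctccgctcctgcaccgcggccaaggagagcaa

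Sst: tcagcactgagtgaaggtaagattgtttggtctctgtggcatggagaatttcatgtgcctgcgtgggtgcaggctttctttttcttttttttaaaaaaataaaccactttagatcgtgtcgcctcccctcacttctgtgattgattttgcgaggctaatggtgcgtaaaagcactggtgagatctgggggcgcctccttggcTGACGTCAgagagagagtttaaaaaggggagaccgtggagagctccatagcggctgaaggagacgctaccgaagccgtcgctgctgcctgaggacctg

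The Sst window holds the full palindromic CRE TGACGTCA, 48 bases before the gene start, where overlapping half-sites on both strands make 8 capital letters. This 8-letter sequence occurs in 1.79% of the 32851 mouse promoter windows, and Sst was the 1 gene of the 9 that had it. The half-site was present in 7 of the 9 genes (Tac1, Sst, Gal, Vip, Adcyap1, Nts and Cck) and in 20.8% of all windows. Tac1 has it 197 and 43 bases before the start, and Vip 79 bases before. In the Gal window the half-site lies 19 bases after the start, and the Npy window has none. An AP-1 sequence, TGANTCA on either strand, occurred in the Nts window, 207 bases before the start, and in 7.81% of all windows. The TATA box sequence TATAAA, read on both strands too, was found for Vip (30 bases before the start, and at 2 further positions), Nppb (31 bases before) and Adcyap1, against 13.6% of all windows. Among the printed genes, those that differed and those that did not both include a gene with a half-site. These matches are letters in a window and do not show binding.

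Tac1 encodes the precursor of substance P and neurokinin A, transmitters of peptidergic nociceptors. It had 408 units in the SEMA3E+IgG array, 408 with SEMA3E and 408 in control medium, 8.68 on the log2 scale. Sst encodes somatostatin, an inhibitory peptide of a small group of itch-sensing neurons, and read 78.1 units in each of the 3 arrays (log2 6.31). Both constitutive peptides thus gave 1 value across the media, Tac1 well above the floor and Sst 0.82 above it on the log2 scale.

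Gal encodes galanin, which modulates excitability and is among the peptides most associated with axotomised sensory neurons. Its signal was 71213 units in the SEMA3E+IgG array, 87819 with SEMA3E and 95063 in control medium. The SEMA3E+IgG array was the lowest and control the highest, so that the array with the IgG lay further from control than SEMA3E alone. With the IgG the signal was 0.811 times that with SEMA3E alone (log2 difference −0.30) and 0.749 times that of control (−0.42), and SEMA3E alone gave 0.924 times control (−0.11). Of the 10 genes Gal had the widest range, 0.42 on the log2 scale. Among the 982 genes at least as bright as Npy, 4 genes including Gal lay this low or lower in SEMA3E+IgG against SEMA3E. Against control 2 of the 982 did, again including Gal.

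Npy encodes neuropeptide Y, absent from most intact sensory neurons and known to appear in large ones after axotomy. It read 11822 units in the SEMA3E+IgG array, 13538 with SEMA3E and 13538 in control medium. Here the SEMA3E+IgG array stood alone below the other 2, which were identical. The ratio was 0.873 against either of them (log2 difference −0.20), and 11 of the 982 bright genes lay this low or lower against SEMA3E and 30 against control, Npy included.

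Adcyap1 encodes PACAP, a peptide that raises cyclic AMP in its target cells. It had 35652 units in the SEMA3E+IgG array, 35652 with SEMA3E and 39420 in control medium. Both media with SEMA3E shared 1 value below control, at 0.904 times its level (log2 difference −0.14), just past the 1.1-fold threshold. For SEMA3E against control it was under that threshold after quantile normalization (−0.11) and after loess (−0.13), and so it was for SEMA3E+IgG against control (−0.13 after either). Of the 982 bright genes 46, Adcyap1 included, lay this low or lower in SEMA3E against control and 49 in SEMA3E+IgG against control. Adding the IgG made no measured difference to this gene.

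Crh encodes corticotropin-releasing hormone, best known from the hypothalamus. It had 511 units in the SEMA3E+IgG array, 584 with SEMA3E and 593 in control medium. All 3 values differed, and the SEMA3E+IgG array was again the lowest. The log2 differences were −0.19 against SEMA3E, −0.21 against control, and −0.02 for SEMA3E against control. Vip, which encodes vasoactive intestinal peptide, read 16.7 units in each of the 3 arrays, below the floor. Of the injury-induced set it was the 1 gene without a signal above background, so nothing can be said of its level.

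**Figure D1:**
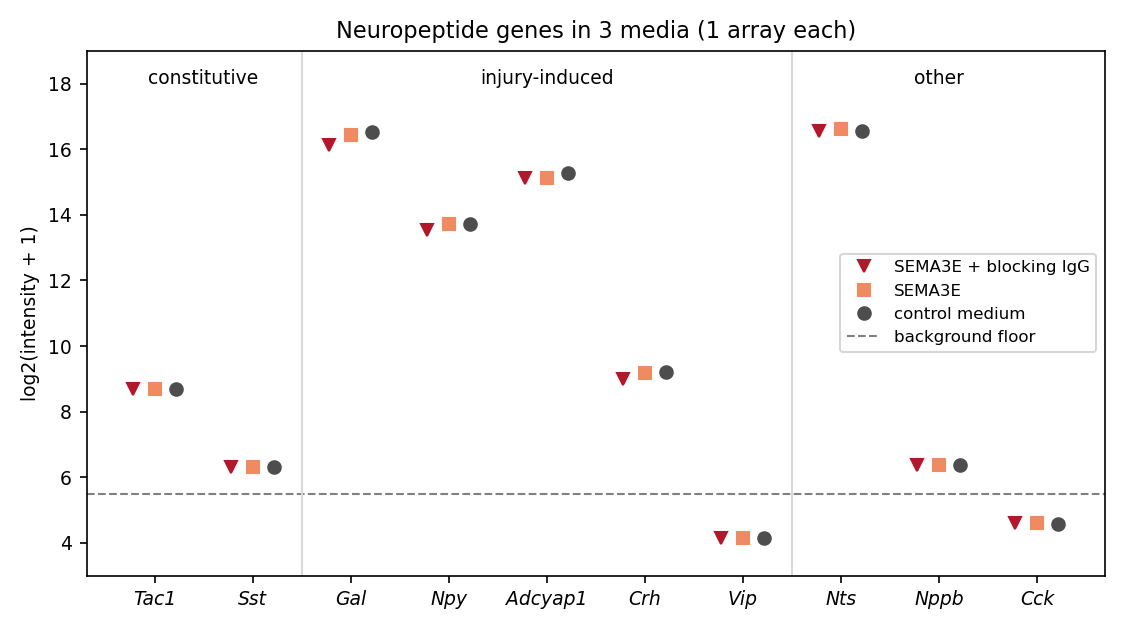
Signal of the 10 neuropeptide genes in each medium on a log2(intensity + 1) axis, with red triangles for SEMA3E with blocking IgG, orange squares for SEMA3E, grey circles for control medium (1 array each) and a dashed line at the background floor of 5.48. Vip and Cck lie below the line, and Gal shows the widest spread between media, 0.42.

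Nts encodes neurotensin and read 95637 units in the SEMA3E+IgG array, 101227 with SEMA3E and 95637 in control medium. Here the SEMA3E array alone was higher, at 1.06 times control (log2 difference 0.08), and the array with the IgG equalled control. That difference is below 1.1-fold. Nppb, which encodes a natriuretic peptide that serves as a transmitter of itch neurons, had 81.4 units in all 3 arrays. Cck, which encodes cholecystokinin, read 23.4 units in the SEMA3E+IgG array, 23.4 with SEMA3E and 22.8 in control medium, all below the floor.

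For SEMA3E against control, the comparison that asks what SEMA3E alters in sensory neurons, 1 of the 8 genes above background (Adcyap1) was lower by 1.1-fold or more and 0 were higher. Over all genes 2.36% were lower by that much and 1.38% higher, with 12.3% lower and 6.21% higher by any amount. By any amount 3 of the 8 (Adcyap1, Gal, Crh) were lower and 1 (Nts) higher, and their median difference was 0, as it was over all genes. Bright genes leaned lower in general: of the 982 at least as bright as Npy, 37.4% were lower and 8.15% higher by any amount, and 4.99% were lower by 1.1-fold. A single gene near the threshold among 8 is not set apart from that.

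Adding the blocking IgG to SEMA3E, which asks about the effect of the antibody on SEMA3E-treated cells, gave 3 of 8 genes lower by 1.1-fold or more (Gal, Npy and Crh) and 0 higher. The share over all genes was 2.08% lower and 2.67% higher (10.3% and 10.2% by any amount), and among the 982 bright genes 2.75% were lower and 5.6% higher. The median difference of the 8 genes was −0.04, against 0 over all genes. All 3 belong to the injury-induced set, of which 4 were above background. With the IgG their values lay further from control. For Npy no value could lie nearer, since SEMA3E and control were identical. For Crh and Gal the difference of SEMA3E from control was −0.02 and −0.11, under 1.1-fold, so a return to control could hardly be seen. Nts (−0.08) was the 1 gene of the 8 that the IgG array gave back at the control value after a difference with SEMA3E.

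**Figure D2:**
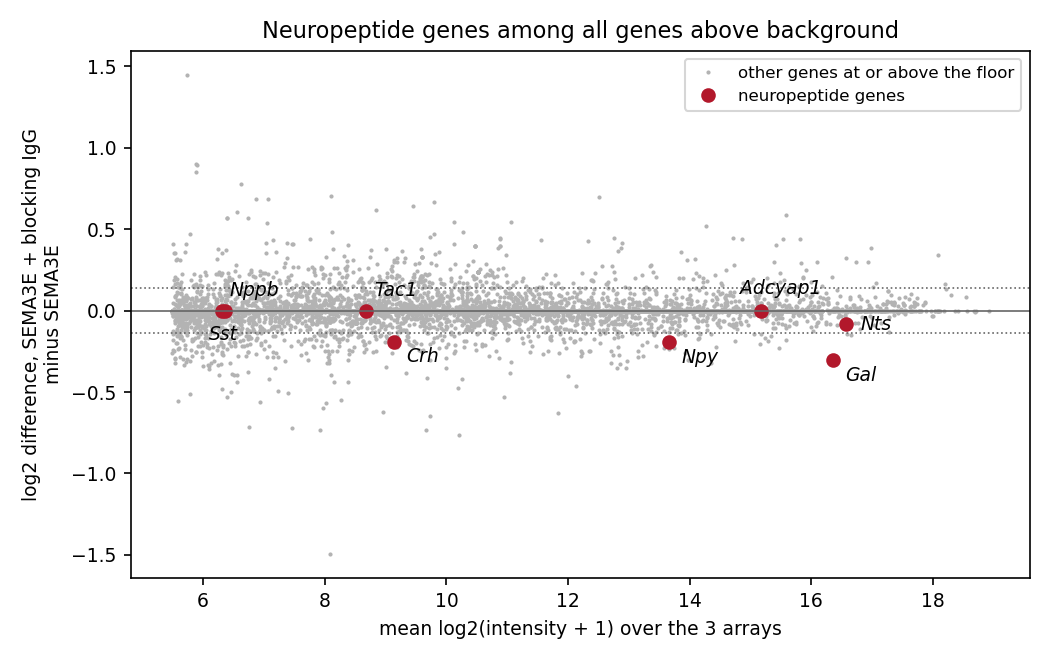
Log2 difference of SEMA3E with blocking IgG minus SEMA3E (vertical axis) against the mean log2(intensity + 1) over the 3 arrays (horizontal axis), each grey point 1 of the 17653 genes above background, red points the 8 neuropeptide genes, dotted lines at 1.1-fold. Gal (−0.30), Npy (−0.20) and Crh (−0.19) lie below the lower dotted line, and Tac1, Sst, Nppb and Adcyap1 lie at 0.

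SEMA3E+IgG against control shares its arrays with the other 2 comparisons and asks which differences from plain medium remain with the antibody. Lower by at least 1.1-fold were 4 of the 8 genes, namely Gal (−0.42), Crh (−0.21), Npy (−0.20) and Adcyap1 (−0.14), and 0 were higher. These are all 4 injury-induced genes that lay above background, with a median of −0.20. Over all genes 2.45% were lower and 2.11% higher by 1.1-fold, or 11.4% and 7.59% by any amount, and among the 982 bright genes 4.99% were lower and 2.34% higher. At a ratio of 5 to 4 Gal alone was left, where 0.544% of all genes were lower. The remaining 4 genes of the 8 (Tac1, Sst, Nts and Nppb) were identical between these 2 arrays.

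**Figure D3:**
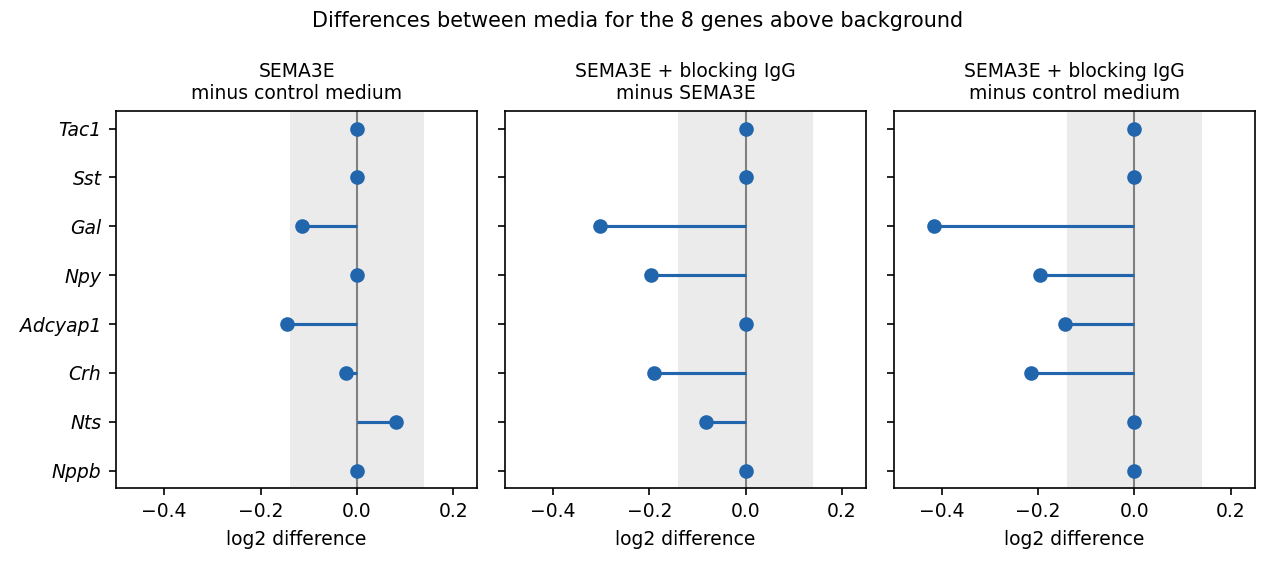
Log2 differences (horizontal axis) of the 8 neuropeptide genes above background in the 3 comparisons, 1 array per medium, with the range under 1.1-fold shaded. Gal, Npy, Adcyap1 and Crh lie at or below zero in each panel, while Tac1, Sst and Nppb lie at 0 throughout.

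The 8 genes did not share 1 arrangement of the 3 arrays. Tac1, Sst and Nppb had 1 value. Npy differed with the IgG alone, as 6.56% of the 17653 genes did. For Adcyap1 the control array stood apart, as for 4.63% of genes, and for Nts the SEMA3E array stood apart, as for 6.14%. Gal and Crh stepped down at both differences, SEMA3E lying below control and SEMA3E+IgG below SEMA3E, an arrangement of 2.14% of genes. Over the 2 differences of SEMA3E minus control and SEMA3E+IgG minus SEMA3E, the genes nearest to Gal among 11941 candidates were Crabp1 (−0.12 and −0.30), which encodes a retinoic acid binding protein, and Mpzl1 (−0.10 and −0.28), a membrane glycoprotein gene. Next came the orphan receptor gene Gpr151 (−0.06 and −0.32), Gadd45g (−0.16 and −0.26), a stress-response gene, and the E-cadherin gene Cdh1 (−0.16 and −0.35). Their Euclidean distances from Gal ran from 0.0036 to 0.064 log2 units, over 3 arrays only.

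Of 48 other peptide precursors listed, 43 were measured and 17 lay above the floor (17653 of 30142 over all genes). Beside 74.9% of all genes above the floor, 14 of the 17 were identical in all 3 arrays. These included Calcb (14.61 on the log2 scale in each array), which encodes beta-CGRP of peptidergic nociceptors, Cartpt (13.93), which encodes the CART peptide and is itself induced by nerve injury in sensory neurons, the neuromedin B gene Nmb (10.09) and the enkephalin gene Penk (8.21). By 1.1-fold 1 of the 17 was lower with SEMA3E than in control medium and 0 higher (2.36% and 1.38% of all genes), namely Gnrh1 (−0.15), which encodes gonadotropin-releasing hormone and lay below the floor in both SEMA3E media at 5.47. Adm, which encodes the vasodilator adrenomedullin, was just under the threshold (8.89 in both media with SEMA3E and 9.03 in control medium, a ratio just short of 1.1-fold). With the IgG against SEMA3E alone, 0 of the 17 differed by 1.1-fold, beside 4.76% of all genes, and the 1 that differed at all was Nms (−0.03). The list's median was 0 in each comparison.

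Receptors for these 10 peptides were mostly near background: of 27 measured, 17 lay below the floor and 10 above it. Over all genes 17653 of 30142 lay above it. Of those genes 74.9% were identical in all 3 arrays, and of the 10 receptors 9 were. The natriuretic peptide receptor gene Npr2 (9.59), the CCK-B receptor gene Cckbr (9.23), Sort1 (8.83), which encodes sortilin, a neurotensin-binding sorting receptor, and the neuropeptide Y receptor gene Npy2r (7.01) were among those. Npy1r, a further neuropeptide Y receptor, was at 7.57 in the SEMA3E+IgG array, against 7.52 with SEMA3E and in control medium, and was the 1 receptor that differed. The galanin receptor genes Galr1 and Galr2, the substance P receptor gene Tacr1 and the VIP receptor genes Vipr1 and Vipr2 lay below the floor.

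The machinery that makes, stores and breaks down peptides differed by less than 1.1-fold throughout, as most genes did. Over all genes above the floor 74.9% were identical in all 3 arrays. Of 13 processing genes above the floor 9 were identical in all 3 arrays, among them Cpe (16.43), the carboxypeptidase that trims cleaved peptides, and Pcsk1 (10.80), a convertase that cuts precursors. Scg5, whose product 7B2 chaperones the convertase PC2, followed the order of Gal at a smaller size, at 13.06 in the SEMA3E+IgG array, 13.10 with SEMA3E and 13.16 in control medium. Of 18 genes of dense-core vesicles 15 were identical, with Scg2 at 13.03 and Cadps, needed for vesicle priming, at 13.27. Syt4 (14.73 with SEMA3E+IgG, 14.71 with SEMA3E, 14.73 in control), Vgf and Scg3 were slightly lower in the SEMA3E array. Of 8 peptide-degrading enzymes above the floor 7 were identical, and Prep, a prolyl endopeptidase gene, lay at 13.13 with SEMA3E+IgG, 13.08 with SEMA3E and 13.13 in control medium. The medians of these 3 lists were 0 in each comparison.

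Of 22 transcription factors of the injury and CREB families, all above the floor, 20 were identical, beside 74.9% of all genes above it. Atf3 (14.45), the classic injury-induced factor of sensory neurons, Sox11 (13.81), Klf7 (14.62) and Stat3 (11.42) each held 1 value. Creb1, which encodes the factor that binds the CRE, was 11.11 in the SEMA3E+IgG array, against 11.04 with SEMA3E and in control medium, and Fosl2 was 9.26 with SEMA3E+IgG, 9.20 with SEMA3E and 9.26 in control medium. Of the 22, 0 differed by 1.1-fold in any comparison, against 3.74%, 4.76% and 4.55% of all genes in SEMA3E against control, SEMA3E+IgG against SEMA3E and SEMA3E+IgG against control.

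**Figure D4:**
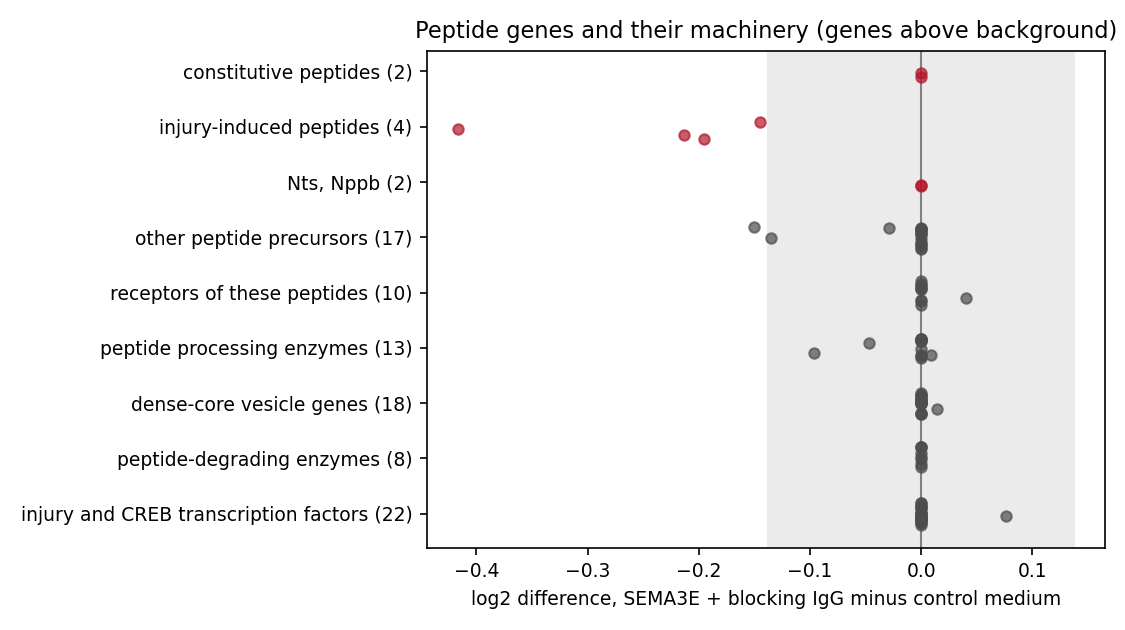
Log2 difference of SEMA3E with blocking IgG minus control medium (horizontal axis) for each gene above background in the peptide sets (red) and in the lists of related genes (grey), with the number of genes in brackets and the range under 1.1-fold shaded; the vertical scatter within a list has no meaning. The 4 injury-induced peptides lie between −0.42 and −0.14, and most other genes lie at 0.

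Markers of cell types were read beside these differences. Of 15 neuronal markers 8 were lower and 1 higher with SEMA3E+IgG than in control medium, beside 11.4% and 7.59% of all genes. For SEMA3E against control 9 were lower and 0 higher, beside 12.3% and 6.21% of all genes. In each of these 2 comparisons 1 marker was lower by 1.1-fold (Tubb3, −0.16 in both), beside 2.45% and 2.36% of all genes. The summed signal of the 15 markers was 432332 units in the SEMA3E+IgG array, 434277 with SEMA3E and 440287 in control medium. With the IgG against SEMA3E alone, Gal, Npy and Crh were lower. There 2 of the 15 neuronal markers were lower and 4 higher, beside 10.3% and 10.2% of all genes. By 1.1-fold 0 of the 15 differed, beside 4.76% of all genes. Of 5 measured markers of peptidergic nociceptors 2 differed, Gfra3 (12.43 with SEMA3E+IgG, 12.29 with SEMA3E and 12.57 in control) and Kit (8.84, 8.82 and 8.91 in the same order). Against control Gfra3 was lower by 1.1-fold with SEMA3E (−0.28) and with SEMA3E+IgG (−0.14), beside 2.36% and 2.45% of all genes. Calcb, Smr2 and Trpv1 held 1 value each, as did 74.9% of all genes above the floor. Smr2 (6.21) and Trpv1 (6.24) lay near the floor of 5.48. Satellite glial markers, of which all 7 measured lay above the floor, had 3 lower by 1.1-fold with SEMA3E+IgG than in control medium and 0 higher (2.45% and 2.11% of all genes), namely Kcnj10 (−0.54), Fbln5 (−0.30) and Atp1b2 (−0.26). The other 4, Cdh19, Apoe, Sox10 and Fabp7, were identical between these 2 arrays, and Fabp7 was higher with SEMA3E than in control medium (0.13). Kcnj10, a potassium channel of these glia, was also lower with the IgG than with SEMA3E alone (−0.30). The summed signal of the 7 was 14723 units with SEMA3E+IgG, 15149 with SEMA3E and 15312 in control medium, and the part of such cells in the peptide differences was not tested.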

How the data were processed

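Total RNA of 3 cultures, 1 per medium, was labelled with the GeneChip WT Pico kit, per the labels' protocols. The authors deposited 1 intensity per probe set on a linear scale, and the submitters' processing notes name Affymetrix Expression Console. For its version, the summary method, the normalization and the build the entry is: not given in the sources used here. Of 65956 probe sets 30604 have a single symbol (827 updated through RefSeq, GRCm38.p6), 2146 several and 33206 none, and the brightest probe set of a gene was used. The floor was set at percentile 95 of 492 vomeronasal receptor genes, by their mean over the arrays. Differences are between log2(intensity + 1) values of 2 arrays, with no test; the number of arrays limits the precision. The 10 genes, the lists, the naming rules and the threshold of 1.1-fold were chosen with earlier results of these data known. All 10 genes are named with their values. Of each list, at most 4 genes furthest apart in each direction and some of its 5 brightest are named; other list genes named, such as receptors below the floor and Isl1, were chosen after their values were seen. The genes nearest to Gal leave out predicted, RIKEN clone and small RNA genes. Alternatives were an offset of 16, centring, quantile normalization, loess (not robust, because most differences are 0), the mean of probe sets, thresholds of 5 to 4 and 1.5-fold, values raised to the floor, and no floor. The counting was tested on simulated shifts. Python 3.11.15 was used.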

Additional observations from a re-analysis of the deposited data

How the results depend on the processing

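No paired analysis was possible because each medium has 1 array, and for the same reason no replicate could be left out. The offset, centring, quantile normalization and loess are the alternatives that could move the value of a gene above the floor. Under these 4, of 96 values 92 kept their side of the 1.1-fold threshold and 4, all of Adcyap1, were below it, and 0 of the called ones turned sign. Under them the difference of Gal ran from −0.32 to −0.30 for SEMA3E+IgG against SEMA3E and from −0.42 to −0.41 against control. Npy ran from −0.20 to −0.18 against SEMA3E, where Crh stayed at −0.19. Adcyap1 is the gene that a change of scale takes below 1.1-fold: for SEMA3E against control it came to −0.11 after quantile normalization and −0.13 after loess, leaving 0 of the 8 genes apart in that comparison. For SEMA3E+IgG against control it was −0.13 under both, leaving 3. At a ratio of 5 to 4 there were 0, 0 and 1 of the 8 genes apart in SEMA3E against control, SEMA3E+IgG against SEMA3E and SEMA3E+IgG against control, and at 1.5-fold 0 in each, because the threshold is stricter. Over all genes 660, 840 and 804 were apart at 1.1-fold in the same order, 129, 138 and 156 at a ratio of 5 to 4, and 30, 24 and 36 at 1.5-fold. The genes at least as bright as Npy, a background chosen after seeing the data, had a share lower by 1.1-fold of 4.99% for SEMA3E against control and for SEMA3E+IgG against control, against 2.36% and 2.45% of all genes. Without a floor the shares lower were 1.52% for SEMA3E against control, 2.20% for SEMA3E+IgG against SEMA3E and 1.76% for SEMA3E+IgG against control, against 2.36%, 2.08% and 2.45% with it. Centring and another offset left each count of neuropeptide genes as it was. The mean of probe sets and raised floor values could not change these counts, since each of the 10 genes has 1 probe set and the 8 counted lie above the floor. No scaling moved the median of all genes by more than 0.0062 on the log2 scale.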

Other observations

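Lists of markers of the remaining cell types were read in the same arrays. All 5 Schwann cell markers above the floor, among them Pmp22, held 1 value in all 3 media. So did the 2 lymphocyte markers above the floor and 74.9% of all genes above it. Of 9 macrophage markers measured, 5 lay above the floor. Of these Lyz2 was higher by 1.1-fold with SEMA3E than in control medium (0.19), and 0 were lower by that much in any comparison. Of 7 fibroblast markers Ogn was lower with SEMA3E+IgG than in control medium (−0.83) and Mgp higher (0.25). Of 6 endothelial markers measured, 5 lay above the floor, and of these Cldn5 was lower in both media with SEMA3E (−0.16). Of 8 markers of the itch neurons that make Nppb and Sst, 7 lay above the floor and Il31ra below it. Among the 7, 6 were identical in all 3 arrays, beside 74.9% of all genes above the floor, and Nts was the exception. The 7 include Nppb, Sst and Nts themselves, so for these genes the list repeats values given above.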
